A study of Mus musculus with 82 samples.

Results

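The G1 cyclins and the inhibitors of their kinases were followed in cultured mouse aortic smooth muscle cells after activation of the receptors for EGF, angiotensin II and thromboxane. The group was chosen by gene name as 10 genes, namely the D cyclins Ccnd1, Ccnd2 and Ccnd3, the E cyclins Ccne1 and Ccne2, the Cip/Kip inhibitors Cdkn1a (p21), Cdkn1b (p27) and Cdkn1c (p57), and the Ink4 inhibitors Cdkn2a and Cdkn2b (p15). These were 10 of the 55401 gene rows in each of 3 count tables, and all 10 passed the filter on low counts at both time points. D cyclins activate CDK4 and CDK6 when growth factors are present, E cyclins activate CDK2 at the entry into S phase, and both kinases phosphorylate the retinoblastoma family so that E2F factors are released. Ink4 proteins bind CDK4 and CDK6, Cip/Kip proteins bind cyclin-CDK complexes, and p27 in particular is known for holding quiescent vascular smooth muscle cells out of the cell cycle.

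Primary aortic vascular smooth muscle cells (aVSMC) from C57BL/6 mice were used up to passage 7 and kept in serum-free medium for 24 h before stimulation. They then received EGF (10 µg/L), AngII (10 nM) or U46619 (1 µM), a stable agonist of the thromboxane receptor TP, alone or combined, or no agonist (control), for 24 or 48 h, and poly(A) RNA was sequenced. At 24 h, each of 6 mice gave 1 culture to every one of 7 groups (42 libraries). These were the control, each agonist by itself, EGF+AngII, EGF+U46619, and all 3 agonists at once (EGF+AngII+U46619). At 48 h, there were 40 libraries from 2 batches of 5 culture sets, one in which control and EGF cultures ran beside U46619 and its combination with EGF (the EGF/U46619 batch), and one in which they ran beside AngII and its combination with EGF (the EGF/AngII batch). The labels assign only 5 mice to these 10 culture sets, whereas the study's methods describe each replicate as a different mouse. The control and EGF groups at 48 h thus had 10 libraries and the other 4 groups 5 each, and every comparison with control at a time point shared the same control libraries. Cultures on plastic lack the vessel wall, and bulk RNA cannot tell a smaller number of expressing cells from less RNA per cell.

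Library totals were 16483529 to 20818809 counts at 24 h (median 19695633) and 19936925 to 33916114 at 48 h. Levels are given in fragments per 1000000 counted (FPM) after TMM scaling within a time point. The cultures were checked against marker genes. Of 6 smooth muscle markers, Tagln and Cnn1 lie on chromosomes that are listed at 0 in the tables, Acta2 ranged from 352 to 15156 FPM at 24 h, and Myocd stayed at or below 3.22 FPM. The fibroblast marker Col1a1 ranged from 886 to 23176 FPM and the pan-leukocyte marker Ptprc reached at most 0.054 FPM at 24 h but 5.46 FPM at 48 h. The summed endothelial markers differed between mice far more than between treatments, from 1.57 to 7.09 FPM in the 7 cultures of mouse 1 to 1029 to 1289 FPM in those of mouse 6. With EGF+U46619 at 24 h, 1 of the 4 smooth muscle markers with a count was called higher (Acta2, log2-fold change 1.62), 4 of 5 fibroblast markers were called lower (median −1.74), and the leukocyte list had 1 gene higher and 1 lower. Of 4 endothelial markers with a count, 0 were called with edgeR and DESeq2 (0 with an unadjusted edgeR p below 0.05), and Cdh5 is among the genes listed at 0. The summed fibroblast markers spanned 1468 to 22180 FPM in control and 1590 to 16051 FPM with EGF+U46619, the endothelial ones 4.85 to 1161 and 1.70 to 1289 FPM, and the leukocyte ones 20.9 to 114 and 22.1 to 61.8 FPM. The smooth muscle sum was 1214 to 5153 FPM in control, 4354 to 14998 FPM with U46619 and 1690 to 12696 FPM with EGF+U46619. The part of these shifts in cell markers in the changes of the cyclins and inhibitors was not tested. At 48 h, the control library of replicate 4 in the EGF/AngII batch did not follow the other 3 libraries of its own culture set (mean r = −0.33 over deviations from group means) but was closest to the AngII library of replicate 2 (r = 0.94), and its summed endothelial markers were 1160 FPM where the set's median was 146 FPM. Leaving it out changed which members were called at 48 h only for Ccnd3 with EGF+U46619 against control, and fitted values without it are given beside the 48 h results.

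Sequences just upstream of annotated exons are shown for the 4 members whose changes are described most fully, Ccne1, Cdkn1b, Cdkn2a and Cdkn2b, because the RNA data concern their transcription units. Each window holds up to 250 bases upstream of a RefSeq start (GRCm38.p6), trimmed where it ran into an exon of another annotation (by 44 bases for Ccne1, 7 for Cdkn2b and 34 for the upper Cdkn2a start), and is written 5′ to 3′ on the gene's own strand. Capitals mark matches, on either strand, to a search with the E2F octamers TTTCCCGC, TTTGGCGC, TTTGCCGC and TTTCGCGC. It also took in the forkhead core TGTTTAC and the cyclic-AMP element TGACGTCA. The AP-1 site TGAGTCA and the E-box CACGTG were searched as well. The short CCAAT box and the GC box GGGCGG completed the set.
Ccne1, chr7:38107535-38107740, minus strand: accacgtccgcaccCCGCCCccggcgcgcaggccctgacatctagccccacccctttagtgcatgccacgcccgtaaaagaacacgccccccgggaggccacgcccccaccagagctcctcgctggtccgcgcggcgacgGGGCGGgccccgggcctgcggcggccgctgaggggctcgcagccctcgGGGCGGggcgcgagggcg
Cdkn1b, chr6:134920151-134920400, plus strand: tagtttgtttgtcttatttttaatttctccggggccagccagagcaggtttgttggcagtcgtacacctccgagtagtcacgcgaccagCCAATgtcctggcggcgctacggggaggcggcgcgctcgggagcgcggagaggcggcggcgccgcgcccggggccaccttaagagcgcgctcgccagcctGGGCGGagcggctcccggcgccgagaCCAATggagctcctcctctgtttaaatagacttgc
Cdkn2b, chr4:89311040-89311282, minus strand: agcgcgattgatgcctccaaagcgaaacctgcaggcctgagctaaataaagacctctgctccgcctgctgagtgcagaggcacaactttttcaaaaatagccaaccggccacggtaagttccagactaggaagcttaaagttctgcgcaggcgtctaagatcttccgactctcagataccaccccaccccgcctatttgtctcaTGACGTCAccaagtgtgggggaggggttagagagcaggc
Cdkn2a, upper start, chr4:89294654-89294869, minus strand: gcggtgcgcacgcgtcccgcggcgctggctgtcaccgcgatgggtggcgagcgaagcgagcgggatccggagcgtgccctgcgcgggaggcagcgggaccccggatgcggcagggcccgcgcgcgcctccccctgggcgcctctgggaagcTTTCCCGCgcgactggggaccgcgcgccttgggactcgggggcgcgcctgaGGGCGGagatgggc
Cdkn2a, lower start, chr4:89282193-89282442, minus strand: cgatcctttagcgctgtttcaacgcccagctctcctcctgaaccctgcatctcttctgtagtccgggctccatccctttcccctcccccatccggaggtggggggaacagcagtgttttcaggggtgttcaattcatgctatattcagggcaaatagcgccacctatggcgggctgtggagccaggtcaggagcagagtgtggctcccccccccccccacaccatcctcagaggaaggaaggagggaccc
The window of Ccne1 held GC boxes, that of Cdkn1b held 2 CCAAT boxes, the nearer 35 bases before the start, and a GC box at 61 bases, and that of Cdkn2b held TGACGTCA at 46 bases. An E2F octamer (TTTCCCGC, 99 bases before the start) was found only at the upper Cdkn2a start, and none of the motifs at the lower one. Over all 32851 windows of 250 bases, 1.86% held an E2F octamer, 0.895% held TTTCCCGC, 3.17% TGTTTAC, 1.55% TGACGTCA, 4.46% TGAGTCA, 6.02% CACGTG, 33.8% CCAAT and 32.7% GGGCGG. These matches describe the letters in the windows and not binding. Cdkn2a has 2 annotated transcripts, of which the upper start encodes p19Arf, which stabilises p53, and the lower one p16Ink4a. The tables count the whole gene, so these products cannot be told apart here.

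On the annotation of the same build (GRCm38, GENCODE), Cdkn2a (ENSMUSG00000044303, chromosome 4, 89274471 to 89294653) and Cdkn2b (ENSMUSG00000073802, 89306299 to 89311039) lie side by side on the minus strand, between Mtap (89137122 to 89181081) and Dmrta1 (89679436 to 89694772). Ccne1 (ENSMUSG00000002068) lies on chromosome 7 from 38097984 to 38107534, and Cdkn1b (ENSMUSG00000003031) on chromosome 6 from 134920401 to 134925513. Neither these 2 genes nor Cdkn2a and Cdkn2b share exon bases with another gene. Ccnd1 (chromosome 7, 144929931 to 144939925), Ccnd2 (chromosome 6, 127125162 to 127152193), Ccnd3 (chromosome 17, 47505051 to 47599691), Ccne2 (chromosome 4, 11191351 to 11204779), Cdkn1a (chromosome 17, 29090976 to 29100727) and Cdkn1c (chromosome 7, 143458339 to 143461050) share between 273 and 1100 exon bases with a gene on the opposite strand. The strand setting of the counting is not given in the sources used here, so reads in those bases cannot be assigned with certainty.

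In control cells at 24 h, Cdkn1a was the member with the highest level per kb of exon (mean 126 FPM per kb), followed by Cdkn2a (73.8), Ccnd2 (66.1), Ccnd1 (53.7), Cdkn1b (31.8), Ccnd3 (25.6), Cdkn2b (20.0), Ccne1 (3.86), Cdkn1c (2.29) and Ccne2 (1.00 FPM per kb). Neighbours in this order differed by less than the spread between mice, apart from the step from Cdkn2b down to Ccne1. Per kb of the longest transcript instead of all exon bases, Ccnd2 (98.2) and Cdkn2a (96.6) changed places, as did Ccnd3 (58.1) and Cdkn1b (31.8). Of the summed D cyclin levels per kb of exon, Ccnd2 supplied 46.6% ± 8.21 (SD, n = 6), Ccnd1 35.0% ± 9.42 and Ccnd3 18.3% ± 7.73. With EGF, the share of Ccnd1 was 50.0% ± 8.63, and with U46619 it was 37.5% ± 9.07. Across the 42 libraries at 24 h, the counts behind a value ran from 1247 to 12140 for Ccnd1 and from 703 to 4545 for Cdkn1b, but only from 79 to 1763 for Ccne1, 13 to 557 for Ccne2 and 2 to 203 for Cdkn1c.

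**Figure D1:**
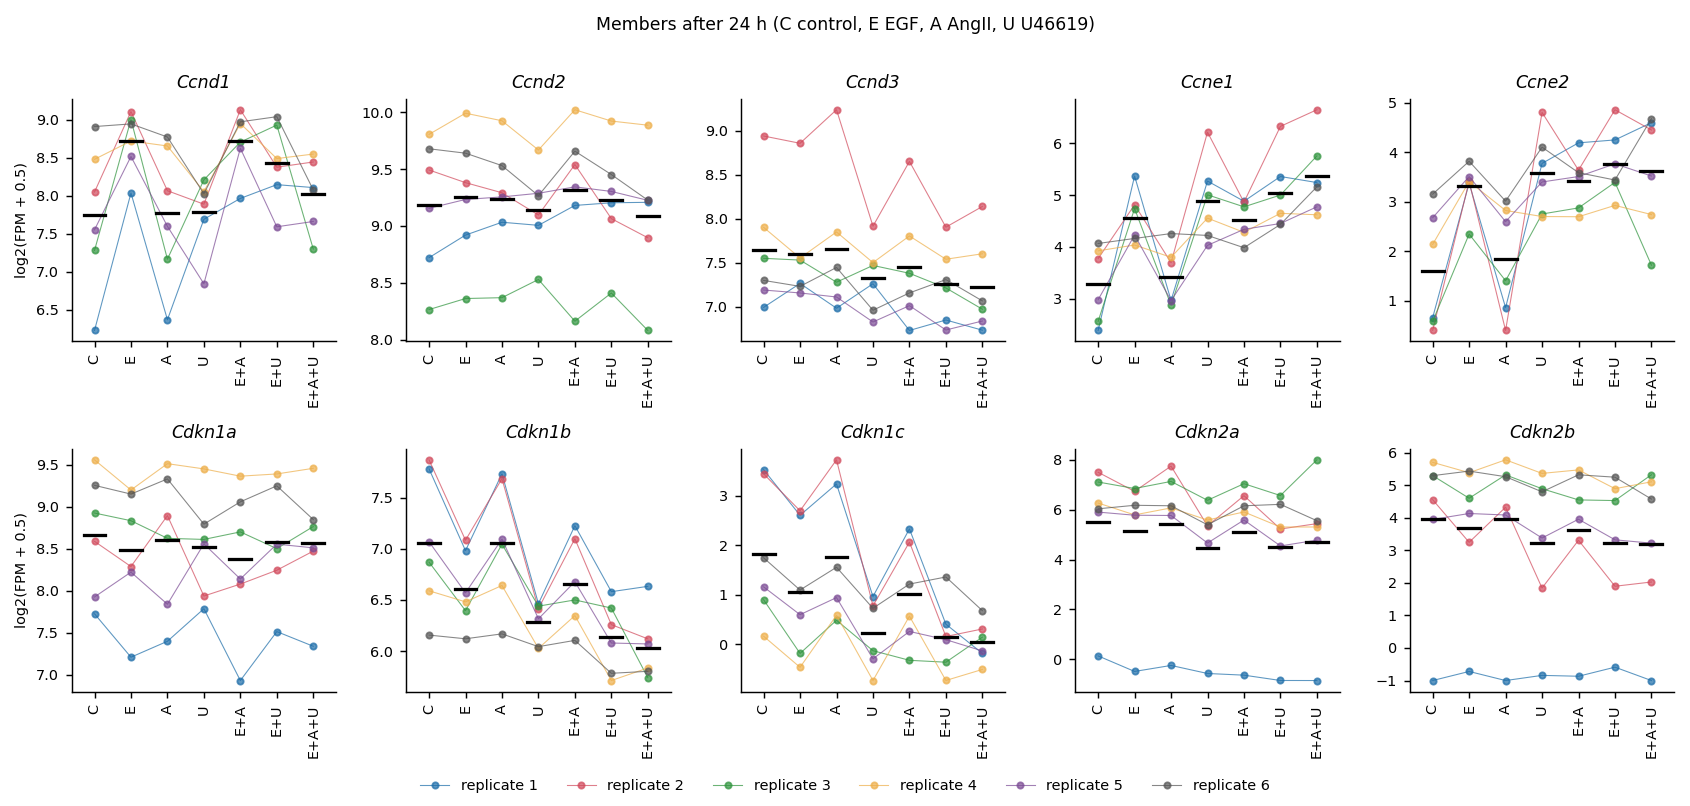
Each panel shows 1 of the 10 genes at 24 h as log2(FPM + 0.5), with 1 point per culture, lines that join the cultures of a mouse (colours) and a black bar at the group mean of these log2 values; C, E, A and U stand for control, EGF, AngII and U46619. Ccne1 with EGF+U46619 (21.1 to 79.9 FPM) lies above all control cultures (4.73 to 16.3 FPM), and mouse 1 lies lowest for Cdkn2a and Cdkn2b in every group.

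A gene was called changed where both the quasi-likelihood F test of edgeR and the Wald statistic of DESeq2, fitted with mouse as a term, gave a Benjamini-Hochberg adjusted p below 0.05 and its mean reached 5 FPM in a group compared. Each of the 14528 genes tested at both times entered the background share. At 24 h, none of the 10 members was called with EGF alone (5 had an unadjusted edgeR p below 0.05). There 0.0275% of all genes were called and 2536 had an unadjusted p below 0.05 in both tools. Ccnd1, Ccne1, Ccne2 and Cdkn1b passed DESeq2 but not edgeR there, and the study reported more changed genes with EGF alone than were called here. No member was called with AngII alone (0 unadjusted), where 0% of all genes were called and 62 had an unadjusted p below 0.05 in both tools. With U46619, 5 of 10 members were called, 2 higher and 3 lower, against 26.8% of all genes (12.9% higher and 13.9% lower). With EGF+AngII, 3 members were called, all higher, against 3.13% of all genes (1.54% higher). With EGF+U46619, 6 members were called, 2 higher and 4 lower, against 32.1% (16.3% higher and 15.8% lower). With EGF+AngII+U46619, the same 6 were called, against 33.4% (17.7% higher and 15.7% lower). The median log2-fold change over the 10 members was −0.23 with EGF+U46619 and −0.05 over all genes.

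**Figure D2:**
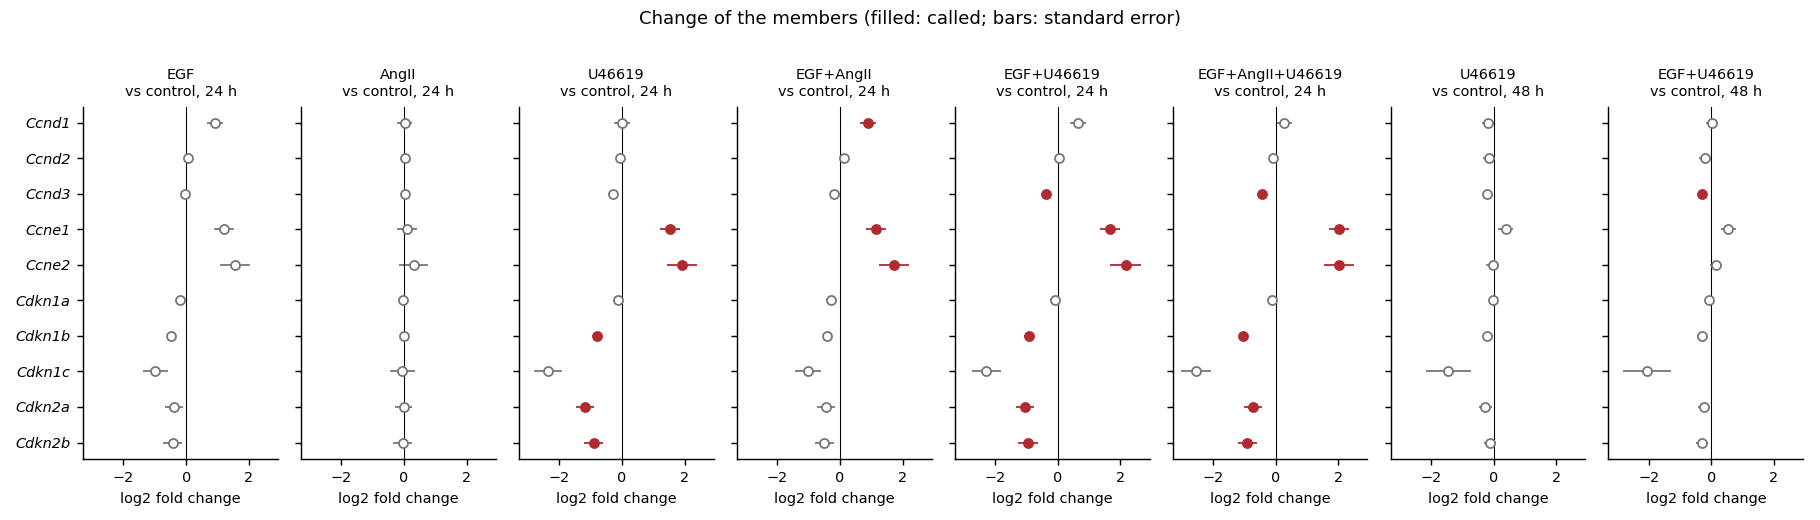
Log2-fold change against control (horizontal axis) of each gene, with bars of 1 standard error, for the 6 comparisons at 24 h and for U46619 and EGF+U46619 at 48 h, where filled red points are called changes. At 24 h, the E cyclins lie above 0 and Cdkn1b below 0 in each comparison that includes EGF or U46619, while the points for AngII alone lie between −0.05 and 0.31.

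Among the D cyclins, Ccnd1, the classical growth-factor-induced cyclin, was the one called higher, with EGF+AngII. Its value with EGF alone was of like size but not called, and it was lower with U46619 than with EGF. In control cells at 24 h it ranged from 74.6 to 480 FPM with a median of 226 FPM. With EGF the range was 262 to 550 FPM (median 456), with EGF+AngII 249 to 559 (455), with EGF+U46619 193 to 525 (345) and with EGF+AngII+U46619 157.1 to 374 (272). With U46619 alone it was 114 to 295 FPM (median 248) and with AngII alone 82.3 to 436 FPM (median 230). All groups overlapped the control group, in which mouse 1 was lowest and mouse 6 highest, but within mice the EGF culture was above its control in 6 of 6. Ccnd1 rose 1.87-fold with EGF+AngII (log2-fold change 0.90 ± 0.26 SE, edgeR adjusted p = 0.0479, DESeq2 adjusted p = 0.0147, higher in 6 of 6 mice). This call was lost without any 1 of replicates 1 to 5 (0.80 to 1.02). With EGF alone the value was 0.91 ± 0.26, and the call missed the threshold in edgeR (adjusted p = 0.0924) but not in DESeq2 (0.0382). EGF+AngII was not tested against EGF alone. With EGF+U46619 the log2-fold change was 0.64 ± 0.26, with adjusted p = 0.0455 in edgeR and 0.0622 in DESeq2, so it was not called. With U46619 alone it was −0.00, with a 95% interval of −0.51 to 0.51. The mice differed in direction there: Ccnd1 was lower than control in 4 and higher in 2, with log2 differences from −0.88 to 1.46.

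U46619 and EGF were also compared directly. Ccnd1 was 1.88-fold lower with U46619 than with EGF at 24 h (log2-fold change −0.91 ± 0.26 SE, edgeR adjusted p = 0.0158, DESeq2 adjusted p = 0.00862), the only member called in that comparison, in which 11.1% of all genes were called. The call was lost without replicate 2 (−0.85) or replicate 5 (−0.78). EGF+U46619 minus U46619 was 0.64 ± 0.25 and positive in 6 of 6 mice, but neither Ccnd1 (edgeR adjusted p = 1) nor any other member was called there, as for 0% of all genes (1 member and 363 genes with an unadjusted p below 0.05). Ccnd2, the D cyclin with the highest level per kb in control cells, ranged there from 307 to 894 FPM (median 645), and its group means at 24 h lay between 580 and 684 FPM. Its log2-fold change was 0.06 with EGF (95% interval −0.15 to 0.27), −0.05 with U46619 and 0.03 with EGF+U46619.

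Ccnd3, which activates the same kinases as the other D cyclins, fell in both combinations that held EGF and U46619. In control cells it ranged from 127 to 490 FPM (median 172.1), with EGF+U46619 from 106 to 239 FPM (median 153.1) and with EGF+AngII+U46619 from 106 to 281 FPM (median 129). The groups overlapped, and mouse 2 was the highest in control (490 FPM against 239 FPM for the next mouse). Ccnd3 fell 1.298-fold with EGF+U46619 (log2-fold change −0.38 ± 0.13 SE, edgeR adjusted p = 0.0244, lower in 5 of 6 mice). It also fell with EGF+AngII+U46619 (−0.42 ± 0.13, edgeR adjusted p = 0.0116, lower in 6 of 6). With U46619 alone it was −0.30 ± 0.13 (edgeR adjusted p = 0.0797), and with EGF alone −0.04. Without replicate 2 the value with EGF+U46619 was −0.25 and no longer called, and the calls were also lost without replicate 5 (−0.34, and −0.42 for the triple combination) and, for EGF+U46619, without replicate 4 (−0.37).

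Both E cyclins, which set CDK2 activity at the G1/S transition, were called higher at 24 h in every group that contained U46619, and also with EGF+AngII. Values with EGF alone were of like size to those with EGF+AngII, and these groups were not tested against each other. Ccne1 ranged from 4.73 to 16.3 FPM in control (median 10.3), from 15.9 to 40.9 with EGF (22.3), from 15.3 to 29.0 with EGF+AngII (23.3), from 15.8 to 73.9 with U46619 (27.3), from 21.1 to 79.9 with EGF+U46619 (28.1) and from 24.1 to 100.0 with EGF+AngII+U46619 (36.3). Ccne1 did not overlap control with EGF+U46619 or with EGF+AngII+U46619. The share of all genes without overlap was not determined, here or at 48 h. Mouse 2 gave the highest Ccne1 value in each U46619 group, 73.9, 79.9 and 100.0 FPM from a control of 13.2 FPM. Mouse 1 had the lowest control, 4.73 FPM, and 38.2 FPM with U46619. The log2-fold change of Ccne1 was 1.53 ± 0.32 SE with U46619 (2.89-fold, edgeR adjusted p = 0.000465), 1.67 ± 0.32 with EGF+U46619 (3.19-fold, 0.000118), 2.02 ± 0.32 with EGF+AngII+U46619 (4.06-fold, 1.09e-05) and 1.15 ± 0.32 with EGF+AngII (2.22-fold, 0.0444). It was higher in 6 of 6 mice in the U46619 groups and in 5 of 6 with EGF+AngII. With EGF alone, the log2-fold change of 1.21 ± 0.32, positive in 6 of 6 mice, was not called (edgeR adjusted p = 0.0834, DESeq2 0.0232).

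Ccne2 was lower in level and was called higher in the same 4 groups. Control cells held 0.821 to 8.39 FPM (median 2.49), against 4.58 to 13.6 with EGF (10.1), 6.00 to 27.4 with U46619 (11.6), 7.09 to 28.5 with EGF+U46619 (11.7) and 2.79 to 25.1 with EGF+AngII+U46619 (16.1). All these groups overlapped control, because mice 4 to 6 had control levels of 3.90, 5.89 and 8.39 FPM where mice 1 to 3 had at most 1.08 FPM. Mice 1 to 3 were also those with endothelial sums of at most 57.2 FPM, against 191 FPM or more in mice 4 to 6, and the part of this in the control levels was not tested. Within mice it was higher than control in 6 of 6 with each treatment that held EGF or U46619. The rise was 3.80-fold with U46619 (log2-fold change 1.93 ± 0.48 SE, edgeR adjusted p = 0.00252), 4.48-fold with EGF+U46619 (2.16 ± 0.48, 0.000659), 4.05-fold with EGF+AngII+U46619 (2.02 ± 0.48, 0.00105) and 3.29-fold with EGF+AngII (1.72 ± 0.48, 0.0462). With EGF alone it was 1.56 ± 0.47 and not called (edgeR adjusted p = 0.102, DESeq2 0.0426). The EGF+AngII calls of both E cyclins were lost without replicate 1, 2, 3 or 5 (0.93 to 1.15 for Ccne1 and 1.36 to 1.99 for Ccne2).

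For the combination of EGF and U46619, the question was whether both agonists together gave more than the sum of their effects on the log2 scale. The interaction was −1.07 ± 0.44 SE for Ccne1 (unadjusted p = 0.0195) and −1.32 ± 0.64 for Ccne2 (unadjusted p = 0.0474), so each point estimate was below the sum, but neither passed (edgeR adjusted p = 1). No member was called for the interaction, nor was any gene with both tools (0% of all genes; 434 genes had an unadjusted p below 0.05 in both). EGF+U46619 against EGF alone differed by 0.46 for Ccne1, with a 95% interval of −0.14 to 1.06, and U46619 against EGF by 0.32 (−0.28 to 0.92), so these data do not place the 2 agonists apart for this gene.

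Of the Cip/Kip inhibitors, Cdkn1b (p27) was called lower at 24 h in the 3 groups with U46619, and Cdkn1c, described next, passed both tools there at a level under the 5 FPM minimum. It ranged from 70.8 to 233 FPM in control (median 125), 69.1 to 135 with EGF (91.7), 64.7 to 87.8 with U46619 (82), 52.0 to 95.2 with EGF+U46619 (71.6) and 52.98 to 98.7 with EGF+AngII+U46619 (61.7). The groups overlapped because mouse 6 had 70.8 FPM in control while mice 1 and 2 had 219 and 233 FPM, but each mouse was below its own control in all these groups. The spread between mice was also narrower with U46619, an SD of 10.4 FPM around a mean of 78.0, than in control, 66.6 around 145 (n = 6 each). Cdkn1b fell 1.72-fold with U46619 (log2-fold change −0.78 ± 0.13 SE, edgeR adjusted p = 6.8e-05), 1.91-fold with EGF+U46619 (−0.93 ± 0.13, 4.33e-06) and 2.05-fold with EGF+AngII+U46619 (−1.04 ± 0.13, 8.06e-07). With EGF alone it was −0.47 ± 0.13, in 6 of 6 mice, and not called (edgeR adjusted p = 0.0922, DESeq2 0.0335), and with AngII alone −0.01 (95% interval −0.26 to 0.25). Cdkn1b was also lower with EGF+U46619 than with EGF (−0.46 ± 0.13, edgeR adjusted p = 0.016, DESeq2 0.00734), the only member called in that comparison, in which 12.9% of all genes were called. That call was lost without replicate 2 (−0.39), 4 (−0.41) or 5 (−0.46).

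Cdkn1a (p21), the p53-induced inhibitor, was not called in any comparison. It ranged from 211 to 754 FPM in control (median 435) with mouse 4 highest, and the group means at 24 h lay between 380 and 448 FPM. The log2-fold changes were −0.19 with EGF, −0.13 with U46619, −0.29 with EGF+AngII, −0.09 with EGF+U46619 and −0.10 with EGF+AngII+U46619. Cdkn1c (p57), an imprinted inhibitor, had a control range of 0.618 to 11.1 FPM (median 2.30), with mice 1 and 2 at 11.1 and 10.4 FPM and the others at or below 2.86 FPM. With U46619 it ranged from 0.0999 to 1.45 FPM and was below its control in 6 of 6 mice. Its log2-fold change was −2.36 ± 0.45 SE with U46619 (edgeR adjusted p = 0.000185), −2.27 ± 0.45 with EGF+U46619 (0.000171) and −2.54 ± 0.47 with EGF+AngII+U46619 (6.95e-05). Both tools passed these values, but they were not called because its mean was below the 5 FPM minimum in each group. With EGF it was −0.99 ± 0.40 (edgeR adjusted p = 0.181).

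The Ink4 genes were read in the same way, with 1 mouse standing apart. Cdkn2a in control cells was 0.599 FPM in mouse 1 and 180, 137, 76.4, 59.3 and 65.0 FPM in mice 2 to 6. With U46619 it was 0.174 FPM in mouse 1 and 40.2, 82.5, 47.4, 24.8 and 41.4 FPM in the others, and with EGF+U46619 0.0548 FPM and 36.8, 94.1, 39.0, 22.8 and 73.6 FPM. In the 7 cultures of mouse 1, Cdkn2a rested on 1 to 10 counts and Cdkn2b on 0 to 3, whereas Cdkn2a in the other mice rested on 445 to 3512. A count of 0 allows up to 3 counts, or 0.162 to 0.180 FPM in the 3 cultures of this mouse with 0 counts of Cdkn2b. Mtap, the neighbour that encodes a methionine-salvage enzyme, was at 36.2 to 69.1 FPM in mouse 1 and 39.0 to 88.1 FPM in the others, and Dmrta1, on the far side, had at most 3 counts in any library at 24 h. The low values of Cdkn2a and Cdkn2b were thus present in all 7 cultures of mouse 1, treated or not, and not shared by Mtap. Mtap itself rose with U46619 (log2-fold change 0.34, edgeR adjusted p = 0.00791) and with EGF+U46619 (0.56, 5.22e-05).

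Cdkn2a fell 2.25-fold with U46619 (log2-fold change −1.17 ± 0.29 SE, edgeR adjusted p = 0.00246, lower in 6 of 6 mice) and 2.07-fold with EGF+U46619 (−1.05 ± 0.29, 0.00429, lower in 5 of 6). Without mouse 1 these were −1.11 (0.0093) and −0.97 (0.0171), and both remained called. With EGF+AngII+U46619 it fell 1.66-fold (−0.73 ± 0.29, edgeR adjusted p = 0.0412), where mouse 3 went from 137 to 255 FPM against the other mice. This last call was lost without mouse 1 (−0.63) and also without replicate 2 (−0.42), 4 (−0.68), 5 (−0.64) or 6 (−0.74). Without replicate 3, whose value went the other way, it was −1.27 and called (edgeR adjusted p = 0.000386). Cdkn2b ranged from 0 to 51.5 FPM in control (median 30.8). In mice 2 to 6 it was 23.0, 38.7, 51.5, 14.9 and 38.7 FPM in control, 3.08, 29.1, 40.6, 9.88 and 27.3 FPM with U46619, and 3.22, 22.5, 29.2, 9.49 and 37.4 FPM with EGF+U46619. It was lower than its control in each of these 5 mice with both treatments, and the ratio was largest in mouse 2. Cdkn2b fell 1.87-fold with U46619 (−0.90 ± 0.30 SE, edgeR adjusted p = 0.0211), 1.93-fold with EGF+U46619 (−0.95 ± 0.31, 0.0132) and with EGF+AngII+U46619 (−0.91 ± 0.30, 0.0153). Replicate 2 set these sizes: without it they were −0.42, −0.47 and −0.46, and none was called. They were also lost without replicate 5 (−0.95, −0.99 and −0.93) and, for the 2 combinations, without replicate 4 (−0.96 and −0.99). With EGF alone the log2-fold changes were −0.39 for Cdkn2a and −0.43 for Cdkn2b, neither of them called (edgeR adjusted p = 0.475 and 0.462).

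**Figure D3:**
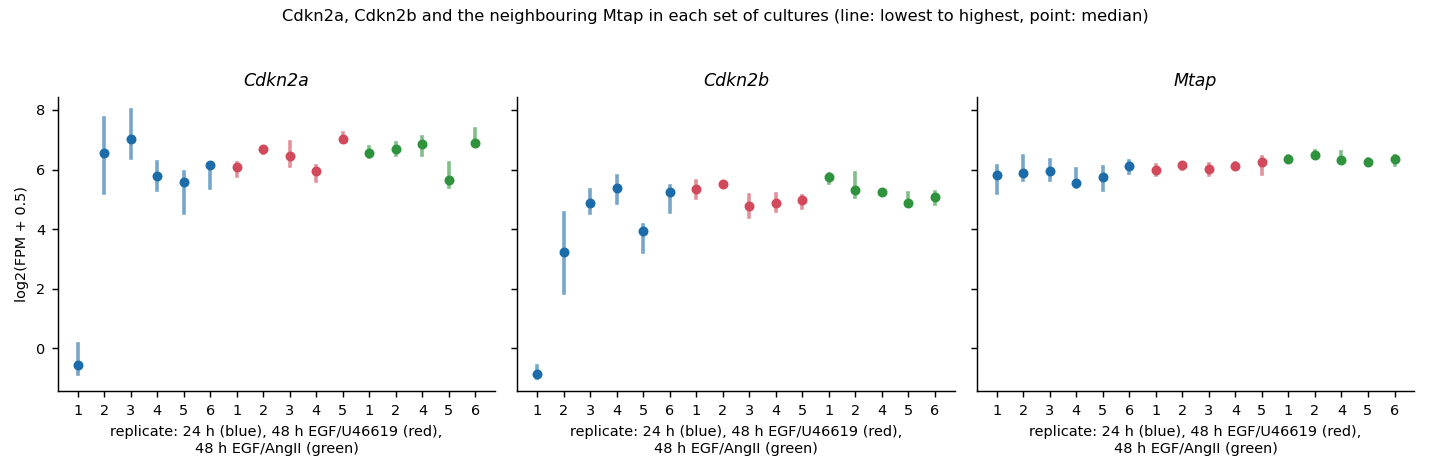
Cdkn2a, Cdkn2b and the neighbour Mtap as log2(FPM + 0.5) in each culture set at 24 h (blue) and in both 48 h batches (red and green), with a point at the median of the set's libraries and a line from the lowest to the highest. At 24 h, mouse 1 holds at most 0.599 FPM of Cdkn2a while its Mtap lies at 36.2 to 69.1 FPM, against 39.0 to 88.1 FPM in the other mice.

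The partners of these genes were read from fixed lists, chosen with earlier results of these data known. Over all genes, 26.8% were called with U46619, 3.13% with EGF+AngII, 32.1% with EGF+U46619 and 33.4% with EGF+AngII+U46619. Among 17 CDKs, pocket proteins and E2F factors, 15 with a count, 8 were called higher and 1 lower with U46619, 3 higher with EGF+AngII, and 9 higher and 1 lower with EGF+U46619 (median log2-fold change 0.66, against −0.05 over all genes). In that last group E2f8 (2.02, edgeR adjusted p = 0.00516) and E2f7 (1.93, 0.00776), the atypical repressors of E2F targets, rose together with Rbl1 (1.65, 0.00163), which encodes the pocket protein p107, and with the activator E2f2 (1.36, 0.0126). Of 16 E2F-responsive S-phase genes, 14 with a count, 13 were called higher with U46619, 9 with EGF+AngII and 14 with either larger combination, and none lower (median 1.32, 1.21, 1.54 and 1.66). They included Rrm2 (2.12, 0.00044), a subunit of ribonucleotide reductase, the replication licensing factors Cdc6 (2.08, 0.00126) and Mcm5 (2.01, 0.000437), and the transcription factor Mybl2 (2.07, 0.000785), each given for EGF+U46619. With EGF alone, none of the 14 was called by both tools, yet all 14 had an unadjusted edgeR p below 0.05 and a median of 1.14. Of all 14528 genes, 2536 had an unadjusted p below 0.05 in both tools with EGF alone.

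The list of regulators of the inhibitors held 12 genes, 10 of them with a count. With U46619, 2 were called higher and 1 lower, a share near the 26.8% called over all genes, and with EGF+U46619, 4 higher and 1 lower, beside 32.1% of all genes. Skp2, the F-box protein that directs p27 to degradation, rose (1.31, edgeR adjusted p = 0.000477), as did its cofactor Cks1b (0.75, 0.0132) and the p53 ligase Mdm2 (0.78, 8.31e-05), and Tbx2, a repressor of Cdkn2a transcription, fell (−0.90, 0.00267), all with EGF+U46619. Among 15 p53 target genes, 14 with a count, 3 were called higher and 3 lower in that group (median −0.08), again beside 32.1% of all genes. Plk2 rose (1.07, 7.61e-06) and the stress-response genes Sesn1 (−1.63, 3.96e-06) and Trp53inp1 (−1.18, 0.000601) fell, and Mdm2 stands in this list too, while Cdkn1a, itself a p53 target, was at −0.09. With all 3 agonists, 11 of the CDKs, pocket proteins and E2F factors were called higher and 1 lower, 4 regulators higher and 1 lower, and 3 p53 targets higher and 2 lower, beside 33.4% of all genes. AngII alone gave no call in any of these 4 lists with both tools, nor any gene with an unadjusted edgeR p below 0.05 in them, and the S-phase genes had a median of 0.09.

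After 48 h, fewer members were called; the difference between time points was not tested, since mice and batches also differed. With EGF+U46619, 1 member was called, against 6.85% of all genes, and with U46619 none was, against 4.03% (1 member had an unadjusted edgeR p below 0.05). None was called with EGF, AngII or EGF+AngII, where 0% of all genes were called with both tools (0 members in each and 123, 222 and 266 genes with an unadjusted p below 0.05). Markers of other cells had negative medians as well. Over all control libraries, the medians of the endothelial and leukocyte lists were −1.54 and −1.54 with U46619 and −1.37 and −1.87 with EGF+U46619, with 0 genes called by edgeR and DESeq2 (1 and 2, then 2 and 2, with an unadjusted edgeR p below 0.05). Within the EGF/U46619 batch, the leukocyte sum was 50.3 to 137 FPM in control and 38.9 to 72.9 FPM with EGF+U46619, and the endothelial sum 19.7 to 594 and 8.37 to 626 FPM. The part of these markers in the 48 h results was not tested. The called member was Ccnd3. In the EGF/U46619 batch it was 165.5, 202, 191, 144 and 150.96 FPM in control and 130, 145, 145, 132 and 136 FPM with EGF+U46619, lower in 5 of 5 culture sets, with the groups overlapping at 144 to 145 FPM. It fell 1.24-fold against all control libraries (log2-fold change −0.31 ± 0.10 SE, edgeR adjusted p = 0.0424, DESeq2 0.0264). Against EGF alone it was −0.33 ± 0.10 (edgeR adjusted p = 0.0452, DESeq2 0.0257), the only member called there, with 4.81% of all genes called. Both calls were lost without any 1 culture set of the EGF/U46619 batch, without EGF/AngII replicate 1, 2 or 4, and under a batch term, with values from −0.34 to −0.25, and the call against EGF also without EGF/AngII replicate 6 (−0.29). Without only the control library that stood apart, Ccnd3 against control was −0.30 and not called (edgeR adjusted p = 0.0603). Within the EGF/U46619 batch alone, both calls were kept (−0.30 each, edgeR adjusted p = 0.0141 against control and 0.0287 against EGF).

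**Figure D4:**
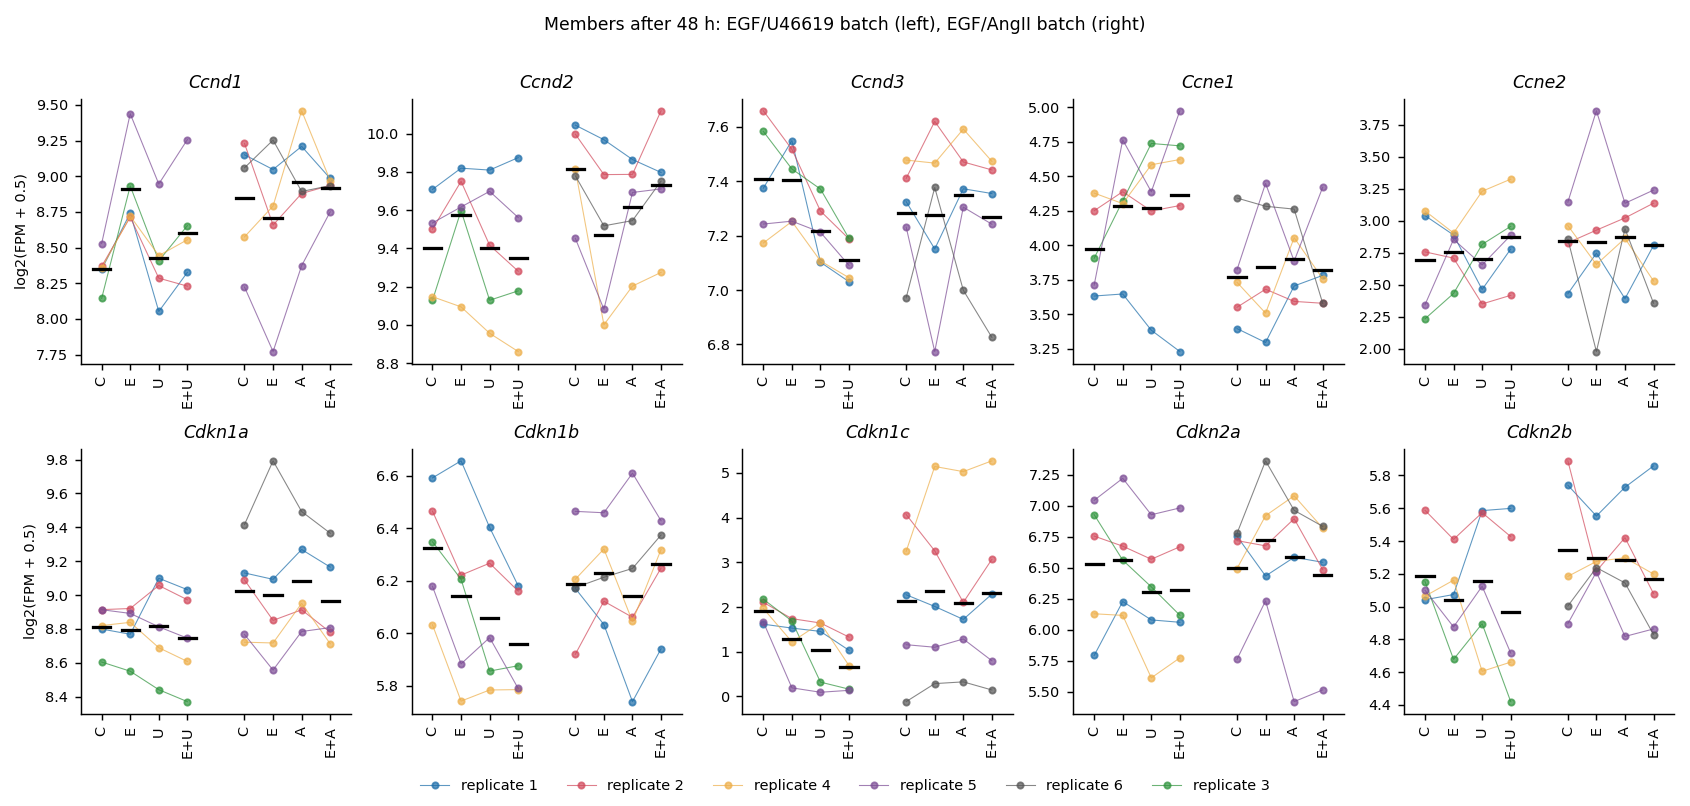
Each panel shows 1 of the 10 genes at 48 h as log2(FPM + 0.5), with the EGF/U46619 batch on the left and the EGF/AngII batch on the right, lines that join the cultures of a set (colours) and a black bar at the group mean of these log2 values. Ccnd3 with EGF+U46619 lies between 130 and 145 FPM, and the E cyclins and Cdkn1b overlap control in every group.

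The E cyclins and Cdkn1b had log2-fold changes closer to 0 at 48 h than at 24 h, and none was called with mouse as the block. These fits took the control libraries of both batches, without a batch term, while the FPM values and set counts below are of the EGF/U46619 batch. Within its culture sets, the mean log2 difference between EGF+U46619 and control was 0.39 for Ccne1, 0.18 for Ccne2, −0.36 for Cdkn1b and −1.24 for Cdkn1c. Ccne1 was 11.9, 18.5, 14.5, 20.3 and 12.6 FPM in the control cultures of the EGF/U46619 batch and 8.87, 19.0, 25.8, 24.1 and 30.9 FPM with EGF+U46619, higher in 4 of 5 sets (log2-fold change 0.54 ± 0.24 SE, edgeR adjusted p = 0.158). Replicate 1 was the set that went down. Ccne2 had 0.15 with EGF+U46619 and −0.03 with U46619. Cdkn1b was 95.96, 87.8, 81.0, 64.9 and 71.9 FPM in control and 72.0, 71.0, 58.2, 54.6 and 54.8 FPM with EGF+U46619, lower in 5 of 5 sets (−0.31 ± 0.14, edgeR adjusted p = 0.159). With the culture set as the replicate block in place of the mouse, Cdkn1b was called lower with EGF+U46619 than in control (−0.31, edgeR adjusted p = 0.00669) and than with EGF (−0.24, 0.0396). It was also lower in 5 of 5 sets with U46619 (−0.20, 0.389), and not called there under the culture-set block (0.0803). Cdkn1c had 2.56, 3.80, 4.01, 3.41 and 2.67 FPM in control against 1.54, 2.01, 0.618, 1.11 and 0.598 FPM with EGF+U46619, where the groups of this batch did not overlap, but the fitted value of −2.07 ± 0.77 was not called (edgeR adjusted p = 0.0887). Within this batch alone it was −1.63 (edgeR adjusted p = 0.00354), and with the culture-set block −1.42 (0.0101), both still under the 5 FPM minimum. In the EGF/AngII batch the control library of replicate 4 had 8.99 FPM of Cdkn1c where the other 3 libraries of its set had 32.2 to 38.1 FPM. Without that library, the values with EGF+U46619 were 0.50 for Ccne1, 0.19 for Ccne2, −0.31 for Cdkn1b and −2.13 for Cdkn1c, and −0.20 for Cdkn1b and 0.02 for Ccne2 with U46619, none of them called.

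Cdkn2a lay between 42.3 and 164.2 FPM and Cdkn2b between 20.9 and 58.8 FPM in all 40 libraries, so no culture set at 48 h resembled mouse 1, and neither gene was called. No member was called for EGF+U46619 against U46619 or for the interaction at 48 h (0% of all genes each; 47 and 32 genes with an unadjusted p below 0.05), nor for U46619 against EGF (3.21% of all genes called). In that last comparison the fitted value of Ccnd1, with EGF libraries of both batches, was −0.36 ± 0.19 (edgeR adjusted p = 0.309). Within the EGF/U46619 batch Ccnd1 was lower in 5 of 5 sets, with a mean log2 difference of −0.48.

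EGF at 48 h was measured in both batches, and the effects of EGF on Ccnd1 and Ccnd2 lay apart between them. In the EGF/U46619 batch, Ccnd1 was 325, 330, 282, 327 and 369 FPM in control and 428, 419, 488, 421 and 693 FPM with EGF, so that the groups did not overlap. In the EGF/AngII batch it was 567.9, 600, 381, 298 and 533 FPM in control and 529, 404, 443, 218 and 610 FPM with EGF, higher in only 2 of 5 sets. The mean log2 difference was 0.56 ± 0.27 (SD, n = 5) in the one batch and −0.14 ± 0.36 (n = 5) in the other, a difference of 0.70 (exact two-sided permutation test over culture sets, p = 0.00794, the smallest that 252 permutations allow). For Ccnd2, EGF minus control was 0.17 ± 0.20 and −0.35 ± 0.28, a difference of 0.52 (exact permutation p = 0.00794), and for Cdkn1b −0.18 ± 0.15 and 0.04 ± 0.13, a difference of −0.22 (exact permutation p = 0.0476). All 10 members were compared in this way after their values had been seen, and the other 7 had p from 0.119 upwards (Ccnd3 0.992, with a difference of 0.0025). The permutation test took culture sets as independent, although the labels give mouse 7 and mouse 10 to sets of both batches. Across 15796 genes, none passed edgeR's interaction test of EGF with batch (adjusted p = 0.193 for both Ccnd1 and Ccnd2). In that test 2780 of the 15796 genes had an unadjusted p below 0.05, as did Ccnd1 (0.00223) and Ccnd2 (0.00176) among the members. A difference between batches at this level was thus not particular to the D cyclins. The permutation test was not run over all genes. Without EGF/AngII replicate 4, the differences were 0.79 for Ccnd1 (exact permutation p = 0.00794), 0.40 for Ccnd2 (0.0159) and −0.21 for Cdkn1b (0.0873). The batches also differed in control level, for example 685 ± 120 FPM against 911 ± 140 FPM of Ccnd2 (SD, n = 5), and partly in mice. EGF/AngII replicate 1 held leukocyte sums of 537 to 831 FPM (Lyz2 up to 729 FPM) where the EGF/U46619 batch had at most 137 FPM. Endothelial control sums had a median of 89.0 FPM in the EGF/U46619 batch and 737 FPM in the other. The latter includes the control library of replicate 4 that stood apart (1160 FPM). In the EGF cultures the medians were 89.3 and 215 FPM. The part of these markers was not tested, and batch and culture history cannot be told apart.

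**Figure D5:**
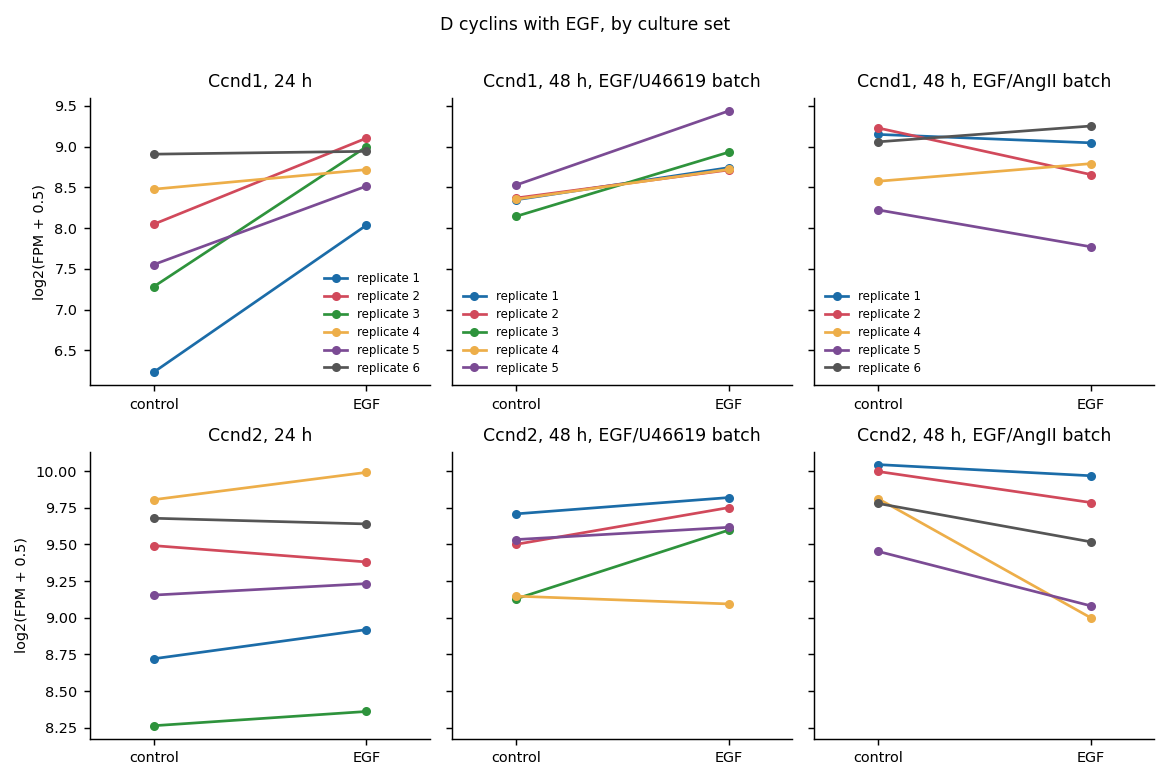
Ccnd1 and Ccnd2 as log2(FPM + 0.5) in paired control and EGF cultures, with a line for each culture set, at 24 h and in each 48 h batch. Ccnd1 goes up in 6 of 6 mice at 24 h and in 5 of 5 sets of the EGF/U46619 batch, but in 2 of 5 sets of the EGF/AngII batch.

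The patterns of the members over libraries were compared with those of the 10161 genes that had a mean of at least 5 FPM, using log2(FPM + 0.5) centred within each mouse over the 42 libraries at 24 h. These correlations share mice and treatments and are given as a description. Ccne1 was most like Mcm7 (r = 0.97), Mcm6 (0.97) and Rangap1 (0.97), and over the 40 libraries at 48 h the same pairs had r = 0.84, 0.83 and 0.85. Ccne2 was most like Zfp367, Atad2 and Eri1 (r = 0.97 each, and 0.73, 0.79 and 0.33 at 48 h). For Cdkn1b the nearest were C1s1 (0.96), Sgce (0.96) and Sesn1 (0.95), with 0.37, 0.70 and 0.69 at 48 h. Ccnd1 was nearest to Zfp36l2 (0.85), Trib2 (0.84) and Stim2 (0.84), pairs that had only 0.32, 0.36 and −0.06 at 48 h. Ccnd3 was nearest to Gtpbp2 (0.91), Obsl1 (0.89) and Ehd2 (0.89), with 0.08, 0.79 and 0.63 at 48 h. Cdkn2a was nearest to Bbc3 (0.93), Gm9780 (0.92) and Fes (0.92), and Cdkn2b to Arl2bp (0.91), Bbc3 (0.88) and Cdkn2a (0.87). Among the members themselves, Ccne1 and Cdkn1b ran opposite to each other (r = −0.90 at 24 h and −0.54 at 48 h), Ccne1 and Ccne2 together (0.84 and 0.59), Cdkn2a and Cdkn2b together (0.87 and 0.59), and Ccnd1 and Cdkn1b only weakly opposite (−0.21 and −0.28).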

How the data were processed

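RNA from 82 cultures was sequenced as paired-end, poly(A)-selected libraries. Per the labels and methods, alignment used HISAT2 2.1.0 against mm10, and the authors deposited raw featureCounts counts per gene, multi-mapping reads included. In the tables, 34819 of 55401 rows had a count, and the 7075 rows on chromosomes 9, MT, X and Y were 0 in every library. From these counts, edgeR 4.0.16 (quasi-likelihood, TMM, R 4.3.3) and DESeq2 1.42.0 (Wald) were fitted over all groups of a time point with treatment and mouse as terms, after edgeR's expression filter (14653 genes at 24 h, 15796 at 48 h, 14528 at both). Standard errors came from the F statistic, and 95% intervals are ±1.96 SE. On data simulated for EGF+U46619 at 24 h (14653 genes), 109 of 200 changed genes were recovered in 118 calls (18 of 59 at 1.5-fold), none with the wrong sign.

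The labels tie each 24 h replicate number to 1 mouse. Same-numbered libraries deviated together in 126 of 126 pairs at 24 h (lowest r = 0.37) and in 57 of 60 at 48 h, and the 3 others involved 1 control library. The members and gene lists were chosen with earlier results of these data known. All members are named, with at most 4 genes of each pathway list (the largest called changes with EGF+U46619 at 24 h), the neighbours of the Ink4 genes, and the 3 genes most correlated with each member called at 24 h. Alternatives changed the tool, the scaling, the filters, the mouse term, the groups in the fit and the replicates. Where 48 h cultures share a mouse, p-values reflect the spread between cultures.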

Additional observations from a re-analysis of the deposited data

Results flagged for a closer look

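Sets of 5 or 6 libraries of a member in a group were tested on the log2(FPM + 0.5) scale. Of 150 sets, 19 held a library whose gap to its nearest neighbour, divided by the set's range, exceeded Dixon's 95% critical value. Chance alone gives about 5% of sets, which share mice and are not independent. Of these, 11 were mouse 1 at 24 h. Its Cdkn2a was 0.599 FPM in control, 0.213 with EGF, 0.343 with AngII, 0.174 with U46619, 0.143 with EGF+AngII, 0.0548 with EGF+U46619 and 0.0540 with EGF+AngII+U46619, where the next lowest mouse had 22.8 to 59.3 FPM. Its Cdkn2b stood apart in control (0 FPM), EGF (0.107), AngII (0) and EGF+AngII (0.0478 FPM). The other sets at 24 h were Ccnd3 with EGF, where mouse 2 had 463 FPM and the next mouse 187.5, and Ccne2 with EGF, where mouse 3 had 4.58 FPM and the next 9.87.

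At 48 h, replicate 5 of the EGF/AngII batch stood apart in 4 sets, with 430 FPM of Ccnd1 and 20.9 FPM of Ccne1 under EGF+AngII, and with 53.8 FPM of Cdkn2a in control and 45.2 FPM under EGF+AngII. Cdkn2b was high in the EGF/U46619 control of replicate 2 (47.6 FPM) and in the EGF culture of EGF/AngII replicate 1 (46.4 FPM). The effect of EGF at 48 h differed between the batches by 0.70 for Ccnd1 and 0.52 for Ccnd2 (exact permutation p = 0.00794 each) and by −0.22 for Cdkn1b (exact permutation p = 0.0476). In edgeR's test of the same difference, 0 of 15796 genes passed and 2780 had an unadjusted p below 0.05.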

How the results depend on the processing

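At 24 h, the calls of Ccne1, Ccne2 and Cdkn1b with U46619, EGF+U46619 and EGF+AngII+U46619 were kept under each alternative run at that time. No call turned its direction: of 350 combinations of a call and an alternative, 265 kept the call and 85 lost it. The settings edgeR alone, DESeq2 alone and no FPM minimum only loosen the rule and could not lose a call. The 24 calls kept under each of them are part of the 265 and say nothing about stability. Without the replicate block (no mouse term), the members called were 3 with U46619, 0 with EGF+AngII, 3 with EGF+U46619, 3 with the triple combination, 0 for EGF+U46619 against EGF and 0 for U46619 against EGF, and at 48 h 0 for EGF+U46619 against control or EGF. With only the groups compared in the fit, the counts were 4 with U46619 (Cdkn2b lost), 4 with EGF+U46619 (Ccnd3 and Cdkn2b lost), 0 with EGF+AngII, 3 with the triple combination, 2 for U46619 against EGF, and 0 at 48 h for EGF+U46619 against EGF. With EGF alone at 24 h, DESeq2 alone called 4 members and the fit without a low-count filter 2, and dropping the FPM minimum added Cdkn1c, giving 6 members with U46619, 7 with EGF+U46619, 7 with the triple combination and 2 for U46619 against EGF.

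Leaving out single replicates at 24 h gave 0 to 3 members with EGF, 4 to 6 with U46619, 0 to 4 with EGF+AngII, 4 to 7 with EGF+U46619 and with the triple combination, 0 to 1 for EGF+U46619 against EGF and 0 to 2 for U46619 against EGF. Without the triple-combination library of replicate 3, an alternative chosen after seeing the data, the last pair of comparisons had 2 each. At 48 h, EGF+U46619 against control and against EGF each gave 0 members under DESeq2 size factors, no low-count filter or a batch term, 2 with the replicate block by culture set (Ccnd3 and Cdkn1b against EGF), and 0 to 1 without single replicates. DESeq2 alone gave 2 against EGF, the fit without the EGF/AngII control library of replicate 4 gave 0 against control, and the EGF/U46619 batch alone gave 1 (Ccnd1) for U46619 against EGF. The causes of these moves were not tested. Depth limits Cdkn1c, Ccne2 and mouse 1's Ink4 values most.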
